A study of Mus musculus with 24 samples.

Results

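The promoters described here are those of mouse chromosome 7 outside the chromosome's olfactory receptor (Olfr), vomeronasal receptor (Vmn) and zinc-finger (Zfp) genes. They are the captured HindIII fragments, called baits, in which a protein-coding gene of this chromosome starts or ends, without any fragment holding a gene whose symbol starts with Olfr, Vmn or Zfp. Of 1741 baits on chromosome 7, 1336 held a gene end, 297 of these were left out by symbol, and 1039 remained, out of 22203 baits in all, while 13574 of the same kind lie on other chromosomes. They carry 1206 genes, 320 hold several, and 851 hold a RefSeq transcription start, so that a name can also come from where a gene ends. A remaining 10 carry a zinc-finger or V1r symbol that the rule did not reach, among them Zik1.

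The study followed mouse cranial neural crest, the migratory embryonic cells that form much of the skeleton and connective tissue of the face. The 24 libraries formed 12 groups of 2 replicates. Wild-type (WT) progenitors were taken at embryonic day 8.5 (E8.5), and all other groups at E11.5. These were FNP, Mx, Md and PA2 in WT and in Ezh2cKO embryos, Md and PA2 with the deletion Hoxa2PTE-36kb-del, and PA2 with Hoxa2PTE-42kb-del. Embryologists commonly use FNP for the frontonasal process, Mx and Md for its maxillary and mandibular neighbours, and PA2 for the second pharyngeal arch. The labels name cell sorting for embryos carrying Wnt1::Cre;ROSARFP and for Ezh2cKO embryos only. Where compared groups differ in sorting, as deletion and WT libraries may, genotype cannot be told apart from cell composition. The sources used here give neither the Cre driver of the knockout nor the position of the deletions. Titles call the replicates biological except for the 42kb deletion, whose replicates may be technical. The genotype field of 1 PA2 36kb library goes against its own title, which was followed here. Each library has a batch label of its own, so batch and library cannot be told apart. Called contacts measure no expression, so the labelled tissues were not checked against marker genes, and a contact in fewer cells of a bulk library cannot be told apart from a weaker contact in all of them.

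In promoter capture Hi-C, cross-linked chromatin is cut and ligated, and junctions that hold a promoter are enriched with probes. The CHiCAGO caller, named by the deposited lists, then scores each fragment pair against the background of its own library, and pairs with a score of at least 5 were listed. Each listed pair is a called interaction, and a cis call joins 2 fragments of 1 chromosome. Ezh2 is the methyltransferase of Polycomb repressive complex 2, which marks silent developmental genes with methylation of lysine 27 of histone H3. Promoters under this mark are known to meet over long distances, and they are commonly rich in CG dinucleotides. Chromosome 7 holds several such homeobox genes, the imprinted genes around Peg3, Ube3a, Igf2 and Cdkn1c, and a proximal region dense in housekeeping genes.

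The promoters on which the results below turn are shown first, as the 250 bases before the RefSeq start in GRCm38.p6, with every CG in capitals. Nkx1-2, Dbx1 and Ppp1r13l start in fragments whose calls fell in Ezh2cKO. Hmx3 and Slc17a6 lie at the far ends of contacts missing there, and Wnt11 had the largest rise between E8.5 and E11.5 among the tested promoters. Nkx1-2 spans chr7:132599638-132599887 on the minus strand, and Hmx3 chr7:131542713-131542962 on the plus strand. Dbx1 spans chr7:49636836-49637085 on the minus strand, and Slc17a6 chr7:51621580-51621829 on the plus strand. Ppp1r13l spans chr7:19360966-19361215 and Wnt11 chr7:98834862-98835111, both on the plus strand.
Nkx1-2: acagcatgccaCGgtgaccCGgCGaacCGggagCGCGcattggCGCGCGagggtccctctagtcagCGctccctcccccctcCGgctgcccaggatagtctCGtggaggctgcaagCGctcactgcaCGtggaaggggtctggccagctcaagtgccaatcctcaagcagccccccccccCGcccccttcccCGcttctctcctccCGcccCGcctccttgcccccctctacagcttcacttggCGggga
Hmx3: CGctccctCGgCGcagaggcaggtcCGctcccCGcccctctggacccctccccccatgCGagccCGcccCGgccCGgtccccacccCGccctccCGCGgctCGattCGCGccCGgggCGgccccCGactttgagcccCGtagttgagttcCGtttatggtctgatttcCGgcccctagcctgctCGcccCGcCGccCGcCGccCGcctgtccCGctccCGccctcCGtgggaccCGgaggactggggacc
Dbx1: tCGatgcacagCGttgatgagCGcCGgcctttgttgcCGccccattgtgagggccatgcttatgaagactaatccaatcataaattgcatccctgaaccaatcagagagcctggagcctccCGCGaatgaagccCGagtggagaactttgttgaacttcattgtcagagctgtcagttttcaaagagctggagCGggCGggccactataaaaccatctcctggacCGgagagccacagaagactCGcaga
Slc17a6: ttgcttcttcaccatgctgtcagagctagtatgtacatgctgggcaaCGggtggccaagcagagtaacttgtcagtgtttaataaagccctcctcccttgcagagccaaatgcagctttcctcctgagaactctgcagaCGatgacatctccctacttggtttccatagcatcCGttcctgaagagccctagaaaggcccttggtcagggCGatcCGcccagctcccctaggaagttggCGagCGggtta
Ppp1r13l: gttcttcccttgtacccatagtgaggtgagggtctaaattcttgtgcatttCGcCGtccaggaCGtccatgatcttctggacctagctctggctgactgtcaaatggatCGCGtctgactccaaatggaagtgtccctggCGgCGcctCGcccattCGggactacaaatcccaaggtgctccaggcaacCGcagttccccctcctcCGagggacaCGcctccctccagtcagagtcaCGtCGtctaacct
Wnt11: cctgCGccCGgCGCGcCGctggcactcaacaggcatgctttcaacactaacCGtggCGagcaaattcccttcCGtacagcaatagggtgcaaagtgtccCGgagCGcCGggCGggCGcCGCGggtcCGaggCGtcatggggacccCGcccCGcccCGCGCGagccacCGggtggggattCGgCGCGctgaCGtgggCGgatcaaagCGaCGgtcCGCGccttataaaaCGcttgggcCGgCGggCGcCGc

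These windows held 19 CG for Nkx1-2, 31 for Hmx3, 12 for Dbx1, 7 for Slc17a6, 14 for Ppp1r13l and 37 for Wnt11. Over all 21263 promoters of the RefSeq table the median was 10, 93.4% held at least 1 CG and 36.7% held 15 or more. The 1108 promoters in the chromosome 7 fragments had a median of 12. A second Wnt11 promoter in the same fragment, chr7:98838595-98838844, held 16. The Slc17a6 window was below the median of all promoters, and the other 5 shown were above it. The promoters of fragments whose calls fell in Ezh2cKO had a median of 13 CG over 44 promoters, those of fragments whose calls rose had 14 over 29, and those not called had 11. The count is of letters in a window of fixed length and of both strands at once, since CG reads the same on each.

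Most chromosome 7 promoters had few calls, and a small number held many. The median fragment had 8.62 cis calls per library, against 4.75 for fragments of the same kind on other chromosomes. The 10 fragments with most calls held 8.22% of all call ends at these promoters. The maximum was the Zik1 fragment, with a mean of 337.6 calls. Zik1 encodes a Krüppel-type zinc-finger protein. In E11.5 WT libraries the chromosome had 14.3 calls per fragment of this kind, rank 1 of 20 chromosomes. In 36kb deletion libraries it ranked 2, after chromosome 13. Libraries listed between 142284 and 190343 interactions, and read depth was unknown.

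The chromosome was chosen by its share of called cis interactions, so the share is given as a description and not tested. The promoters held 9.14% and 9.10% of cis calls in the E8.5 libraries. In the 8 E11.5 WT libraries they held 8.95% ± 0.197 (SD), between 8.69% and 9.21%. In the 8 Ezh2cKO libraries the share was 7.90% ± 0.318, between 7.52% and 8.45%, so that every knockout library lay below every WT library. The 36kb deletion libraries gave 6.98% and 7.72% in Md and 6.83% and 8.41% in PA2. The 42kb deletion gave 8.10% and 8.24% in PA2, where WT gave 9.07% and 8.94%. On the log2 scale the share differed from WT by -0.18 in Ezh2cKO, -0.26 with the 36kb deletion and -0.14 with the 42kb deletion. These were the lowest, the lowest and the second lowest values of the 20 chromosomes.

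**Figure D1:**
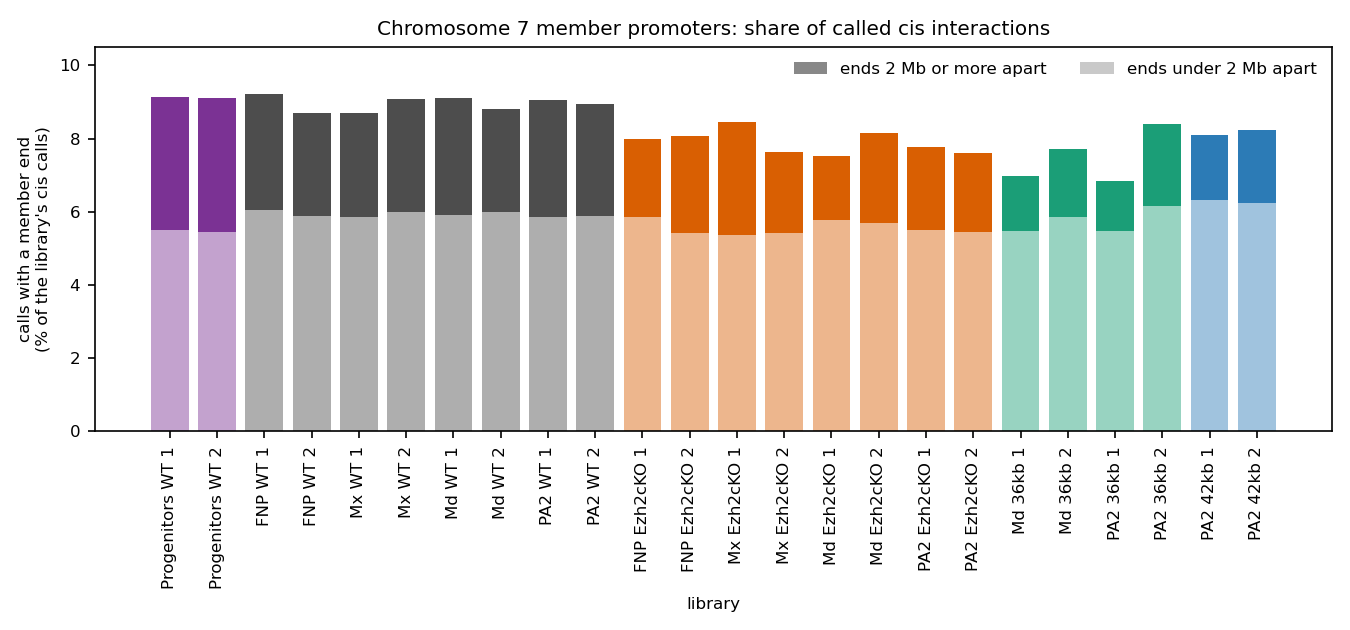
Percent of each library's called cis interactions that have an end at the chromosome 7 promoters, 1 bar per library (a member is one of these promoters), coloured by library set, with calls whose ends lie under 2 Mb apart in pale and those at 2 Mb or more in full colour. The full-coloured part averages 3.02% in E11.5 WT libraries, 2.34% in Ezh2cKO and 1.74% with the 36kb deletion.

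Calls whose ends lay 2 Mb or more apart held 3.64% of cis calls at E8.5 and 3.02% ± 0.175 in E11.5 WT. They held 2.34% ± 0.399 in Ezh2cKO, 1.74% ± 0.400 with the 36kb deletion and 1.88% with the 42kb deletion. The distant part was thus 0.774 of WT in Ezh2cKO, 0.568 with the 36kb deletion, and 0.601 with the 42kb deletion. It accounted for 65.1% of the difference in Ezh2cKO and 89.0% of that with the 36kb deletion. With the 42kb deletion distant calls were lower by 1.25 points and nearer calls higher by 0.419 points, and between E8.5 and E11.5 the differences were -0.625 and 0.449 points. Fewer distant calls were not particular to chromosome 7. Among calls of fragments of this kind, the percent at 2 Mb or more was lower on all 19 other chromosomes in each of the 4 comparisons. In Ezh2cKO it was 29.5% against 33.7% on chromosome 7, a ratio of 0.874, and the other chromosomes had a median ratio of 0.863. The 36kb deletion had a ratio of 0.675 against a median of 0.751, the 42kb deletion 0.662 against 0.747, and stage 0.844 against 0.733. Distant calls rarely recurred. Within a group, 71.1% of pairs under 100 kb were called in both replicates on average, 29.5% of those at 1 to 2 Mb, 16.2% at 2 to 10 Mb and 4.58% at 10 Mb or more. Their median scores were much alike, 6.51 under 2 Mb and 6.62 beyond. Of 118017 pairs called in any library, 79574 were called in 1 library only, and 1035 in all 24, of which 1 spanned 2 Mb or more. Sums over distant calls are therefore given by window, and single contacts are described mainly for shorter distances.

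Along the chromosome, the calls were concentrated in the proximal part. In 5 Mb windows the largest share was at 15 to 20 Mb, where 97 promoters held 2.35% of cis calls at E8.5 and 2.13% ± 0.104 in E11.5 WT. The same window held 1.50% ± 0.147 in Ezh2cKO, with the highest knockout library at 1.76% and the lowest WT library at 2.03%. It held 1.54% ± 0.327 with the 36kb deletion and 1.87% with the 42kb deletion. This window was lower without overlap of libraries in all 4 comparisons. Of the 29 windows, 3 were lower and 1 higher without overlap in Ezh2cKO, where 3.85% and 3.45% of all 493 windows of the genome were. With the 36kb deletion 6 were lower and 7 higher, against 6.29% and 21.9% of all windows. With the 42kb deletion 14 were lower and 11 higher (25.4% and 43.2% of all), and by stage 8 and 11 (26.2% and 27%). Nothing is read from these counts, because the position of the calls was part of how the chromosome was chosen. The other windows lower in Ezh2cKO were at 20 to 25 Mb, 0.220% against 0.169%, and at 30 to 35 Mb, 1.19% against 0.954%. The window at 65 to 70 Mb was higher, 0.0944% against 0.116%.

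**Figure D2:**
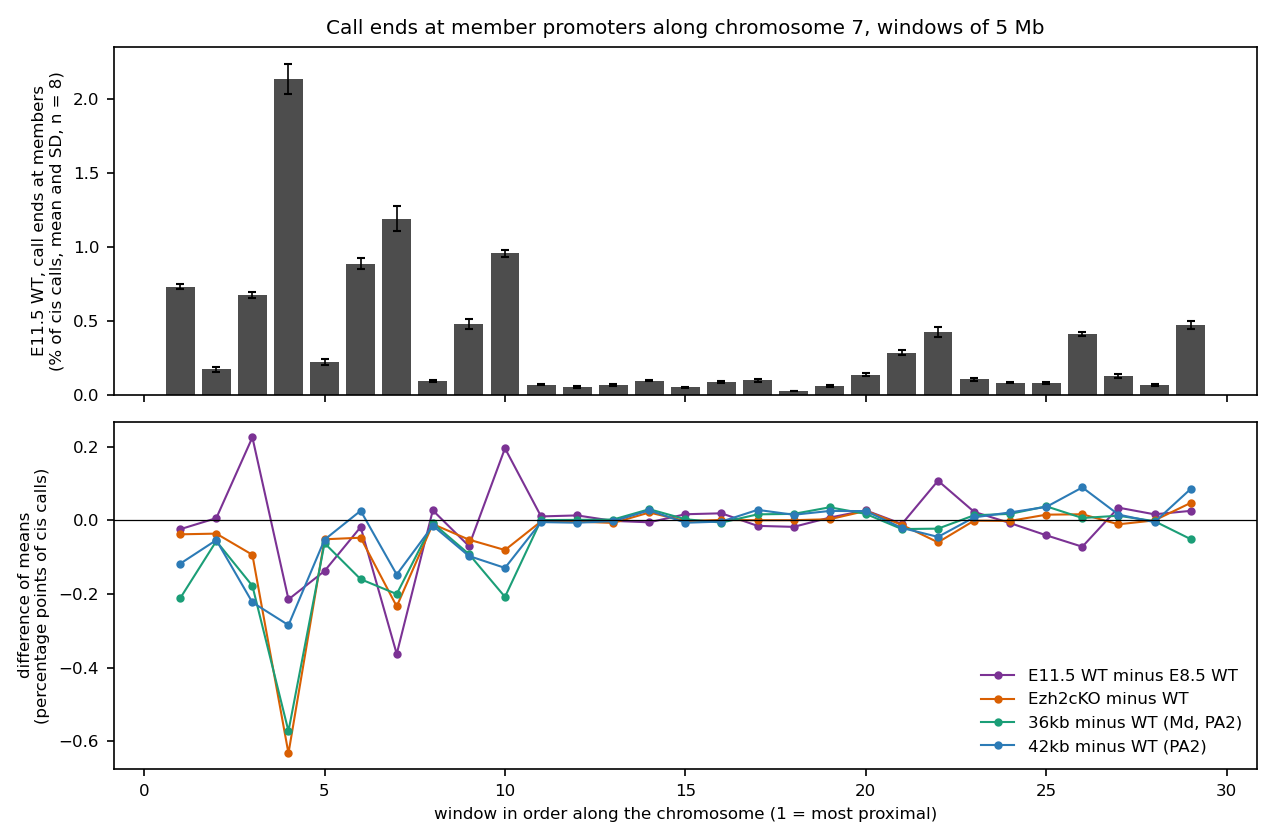
Top, call ends at the chromosome 7 promoters in windows of 5 Mb, in order along the chromosome, as mean percent of cis calls in 8 E11.5 WT libraries with the SD. Bottom, the difference of means in percentage points for each comparison: the lowest point of the Ezh2cKO line is at the window of 15 to 20 Mb, from 2.13% to 1.50%.

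Distant calls joined a few gene-dense windows to each other. In E11.5 WT, 49.1% of the calls at 2 Mb or more joined 2 of the 10 windows of 2 Mb that the most frequent pairs name. The most frequent pair joined 18 to 20 Mb, where Tomm40, a subunit of the mitochondrial import pore, had most calls, with 24 to 26 Mb, led by the fragment of Erf and Gsk3a. Erf is a transcriptional repressor of the ETS family and Gsk3a a kinase. This pair had 411.5 calls per library at E8.5 and 252.8 ± 27.4 in E11.5 WT, with no WT library under 192. It had 107 ± 20.0 in Ezh2cKO, with none over 134, then 85.8 ± 33.5 with the 36kb deletion and 131.5 ± 27.6 with the 42kb deletion. As a percent of cis calls the pair stood at 0.411 of WT in Ezh2cKO, 0.373 with the 36kb deletion and 0.536 with the 42kb deletion. The pair of 18 to 20 Mb with 44 to 46 Mb, led by the DNA helicase gene Ruvbl2, went the other way with stage. It had 73 calls at E8.5 and 151.9 ± 24.1 in E11.5 WT, and 100.6 ± 24.7 in Ezh2cKO. So the proximal windows did not all lie lower at E11.5. In the mutants the 5 most frequent pairs all lay below WT, at 0.760 of it or less. These pairs were ranked by their mean in E11.5 WT, which includes the controls of the mutants. That ranking favours lower values in the mutants, so no general fall is read from it. The less frequent pairs listed stood between 0.544 and 1.12 of WT in Ezh2cKO.

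**Figure D3:**
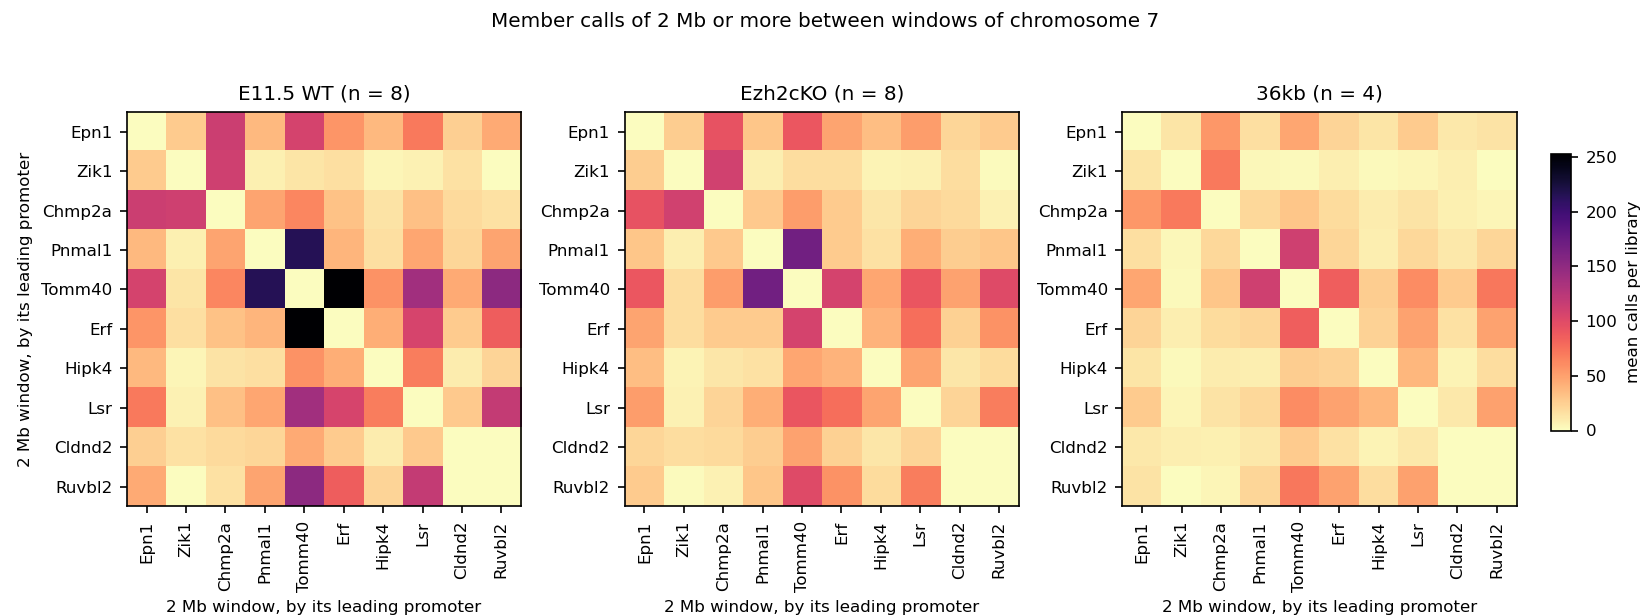
Mean called interactions per library of 2 Mb or more between the 10 windows of 2 Mb, each named by its leading promoter, in E11.5 WT (n = 8), Ezh2cKO (n = 8) and 36kb deletion libraries (n = 4), all on 1 colour scale. The darkest cell, Tomm40 with Erf, has 252.8 calls in WT, 107 in Ezh2cKO and 85.8 with the 36kb deletion.

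The reach of the calls was compared by exact two-sided permutation of libraries, within tissue for the mutants and over all 10 WT libraries for stage, for 4 measures in 4 contrasts with Benjamini-Hochberg adjustment over the 16. These measures describe the calls by kind. They are not independent of the share, because distant calls make up much of it. The percent of calls that joined 2 chromosomes was 0.731% ± 0.0839 in the 8 WT libraries and 1.32% ± 0.269 in the 8 Ezh2cKO libraries. The knockout libraries lay between 0.926% and 1.69% and the WT libraries between 0.615% and 0.825%, with no overlap. The exact p was 0.00154, the smallest this design allows, and the adjusted p 0.0247. At a score minimum of 7 the difference was 0.260 points instead of 0.587 and did not pass (adjusted p = 0.0741). Fragments of the same kind on other chromosomes had 3.58% ± 0.193 in WT and 3.92% ± 0.281 in Ezh2cKO (exact p = 0.0170, adjusted p = 0.0889). The difference of these effects was 0.248 points (exact p = 0.0278, adjusted p = 0.111), so the rise was not shown to be particular to chromosome 7. The percent was 1.54% with the 36kb deletion against 0.789% in Md and PA2 WT. With the 42kb deletion it was 2.02% against 0.777%.

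The other measures of reach did not pass the adjusted threshold in any contrast. The percent of cis calls at 1 Mb or more was 45.1% at E8.5 and 40.3% ± 1.40 in E11.5 WT. It was 36.7% ± 4.01 in Ezh2cKO (exact p = 0.0478, adjusted p = 0.0988). With the 36kb deletion it was 29.6% ± 2.83 against 40.8% ± 1.70 in WT, with no overlap of libraries, and the exact p was the smallest possible, 0.0556. With the 42kb deletion it was 29.1% against 41.3%, in a design whose smallest p is 0.333. The median distance was 610 kb at E8.5 and 474 kb ± 36.2 in E11.5 WT, with the smallest possible exact p of 0.0444 and an adjusted p of 0.0988. It was 441 kb ± 82.8 in Ezh2cKO (exact p = 0.336), 351 kb with the 36kb deletion against 490 kb, and 334 kb with the 42kb deletion against 503 kb. The fragments of this kind on other chromosomes also had fewer calls at 1 Mb or more, with 22.4% against 27.0% in 36kb deletion libraries, 21.3% against 26.7% with the 42kb deletion and a difference of -2.77 points in Ezh2cKO (exact p = 0.00772, adjusted p = 0.0741). By stage their median distance was 403 kb at E8.5 and 421 kb at E11.5, where that of the chromosome 7 promoters was shorter at E11.5. The percent of cis calls that joined 2 baits was between 24.4% and 25.1% in the E8.5, E11.5 WT and Ezh2cKO means. It was 27.1% with the 36kb deletion and 27.9% with the 42kb deletion.

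Single promoters were then compared as log2 of their cis calls plus 0.5, per total of cis calls on their own chromosome. This scaling takes out the chromosome's share, so a change is relative to the other baits of chromosome 7. It does not take out the position of the calls along the chromosome, which was also part of the choice. The p-values of single promoters in the windows described above are therefore not independent of that choice. Of the 1039 fragments, 681 had a mean of at least 5 calls and were tested, and 358 were not. Adjusted p-values are from limma over all 10344 tested baits of the series, with a threshold of 0.05, and ± gives the standard error (SE) of a log2 change. Unless the text says otherwise, the call of a promoter named with values below was kept when any 1 library of the groups compared was left out, as far as the promoter still passed the filter on low counts.

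Between E8.5 and E11.5, calls rose most at the promoter of Wnt11, a secreted signalling protein of the Wnt family, and at its neighbour Emsy, a chromatin-associated gene. Calls also rose at Cdkn1c, an imprinted inhibitor of the cell cycle, at Tead1, a transcription factor of the Hippo pathway, and at Nr2f2, a nuclear receptor. Of the 681 promoters, 85 rose and 51 fell, when 18.2% and 9.99% of all tested baits did. The median log2 change was -0.04, against 0.04 over all tested baits. Scaled to the library total, where the chromosome's share enters each value, 104 rose and 68 fell, against 18.6% and 10.3% of all tested baits. The counts rest on both progenitor libraries: without replicate 1 there were 45 rises and 8 falls, and without replicate 2 there were 45 and 12.

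Wnt11, on the fragment chr7:98834699-98840472, had 4 calls in each E8.5 library and 29, 47.5 and 66 as the lowest, median and highest in E11.5 WT. The groups lay far apart, and the log2 change was 3.27 ± 0.26, or 9.62-fold (adjusted p = 2.99e-08). Nearly all of the gain lay at 100 kb to 1 Mb, with a mean of 2.5 calls at E8.5 and 44.2 at E11.5. Emsy, chr7:98653347-98658159, had 1 and 2 calls at E8.5 and 11, 14.5 and 24 at E11.5, a log2 change of 2.91 ± 0.28 (adjusted p = 2.58e-07). It lies next to Wnt11, and its gain lay in the same range of distance, from 0 calls to 14.5. The Cdkn1c fragment, chr7:143458805-143469591, had 12 calls in both E8.5 libraries and 33, 47 and 56 at E11.5. No RefSeq start of Cdkn1c was matched to this fragment, which does not show that the start lies elsewhere. The log2 change at Cdkn1c was 1.78 ± 0.18 (adjusted p = 7.01e-07), and no E11.5 library came near the E8.5 level.

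Tead1 had 7 and 2 calls at E8.5 and 18, 25.5 and 49 at E11.5, a log2 change of 2.52 ± 0.36 (adjusted p = 4.38e-05). This fragment, chr7:112668853-112689965, holds an end of the gene. No RefSeq start of Tead1 was matched to it, which does not show that the start lies elsewhere. Nr2f2, chr7:70364563-70368937, had 8 and 5 calls and then 15, 19 and 25 (log2 change 1.37, adjusted p = 0.000728). Tnnt3, the fast skeletal troponin T, had 4 and 6 calls and then 18, 23 and 32 (log2 change 2.00, adjusted p = 9.17e-06). Each of these groups was free of overlap. Krtap5-4, a keratin-associated protein of hair, rose by 2.43 and Tex36 by 2.36 on the log2 scale. The fragment of the mitochondrial ribosomal genes Mrpl46 and Mrps11 had 8 and 6 calls and then 17, 24 and 32 (log2 change 1.59, adjusted p = 6.22e-05).

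Phox2a, a homeobox gene of autonomic neurons, had 10 and 13 calls at E8.5 and 2, 4.5 and 7 at E11.5, a log2 change of -1.50 ± 0.39 (adjusted p = 0.00757). Dbx1, a homeobox gene of neural progenitors, had 48 and 48 calls and then 20, 25 and 30 (log2 change -1.05 ± 0.32, adjusted p = 0.0193). Neither group overlapped, but the call at Phox2a was lost without progenitor replicate 2 (adjusted p = 0.101), and that at Dbx1 without either progenitor library (adjusted p up to 0.137). Irf7, a transcription factor of the interferon response, shares the fragment chr7:141262342-141267776 with Phrf1, which had 16 and 11 calls and then 1, 4.5 and 6. Its log2 change was -1.75 ± 0.48 (adjusted p = 0.0098), and without either progenitor library it had too few calls to be tested. The fragment of Mcee and Mphosph10 had 10 and 13 calls and then 2, 4 and 7 (log2 change -1.46, adjusted p = 0.00203). The largest fall was at the fragment of Exoc3l2 and Mark4, from 39 and 35 calls to between 3 and 21 (log2 change -2.02, adjusted p = 0.0125), and it lost its call without either progenitor library (adjusted p up to 0.115).

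By gene list, skeletal and craniofacial genes had 4 rises and no fall among 18 tested, with a median log2 change of 0.38. The rises included Tnnt3, Cdkn1c and Tead1, named above, and Parva, a focal adhesion protein, from 7 and 17 calls to between 23 and 41 (log2 change 1.25), which lost its call without progenitor replicate 1 (adjusted p = 0.110). Imprinted genes had 2 rises and no fall among 14, with a median of 0.38. These were Cdkn1c and the ubiquitin ligase gene Ube3a, from 2 and 6 calls to between 7 and 16 (log2 change 1.40), the latter lost without progenitor replicate 1 (adjusted p = 0.245). Housekeeping genes had 12 rises and 3 falls among 66, developmental regulators 3 and 4 among 32, signalling genes 3 and 4 among 24 and neuronal genes 4 and 2 among 29. Tissue-restricted gene clusters had 3 rises and 5 falls among 54. These counts sit beside 12.5% of rises and 7.49% of falls over all tested chromosome 7 promoters, and the lists were not tested.

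In Ezh2cKO, calls fell at fragments of the homeobox genes Nkx1-2, Dbx1 and Hmx2, and at a group of neighbouring fragments around Ercc1. They rose at Hif3a, a hypoxia-inducible factor, at Igf2, an imprinted growth factor, and at genes such as Ints4, Tcerg1l and Abca15. Of the 681 promoters, 29 rose and 31 fell, against 5.07% and 4.82% of all tested baits. The median log2 change was 0.07, against 0.01 over all tested baits. Scaled to the library total instead, 18 rose and 96 fell, against 5.38% and 5.39% of all tested baits, since the lower share of the chromosome then enters each value. Without Mx Ezh2cKO replicate 2, 15 rose and 22 fell. In the first 50 Mb lay 27 of the 31 falls, 7 of the 29 rises and 60.1% of the promoters not called, from which nothing is read, since position was part of the choice of the chromosome.

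The Nkx1-2 fragment chr7:132595414-132602006 had 5 and 6 calls at E8.5, 8, 8 and 9 as the lowest, median and highest in WT, and 1, 1 and 3 in Ezh2cKO. No library of one group reached the other, and the log2 change was -2.17 ± 0.20, or 4.51-fold lower (adjusted p = 2.53e-07). The calls that went lay at 1 to 2 Mb, with a mean of 7.25 in WT and 0.125 in Ezh2cKO, while the 1 call at 100 kb to 1 Mb was there in all 16 libraries. These distant calls ended at Hmx3 and Hmx2, homeobox genes of inner ear and hypothalamus. The pair of Nkx1-2 with the Hmx3 fragment, 1057 kb away, was called in 7 of 8 WT libraries with scores of 5.25 to 8.77, in 0 of 8 Ezh2cKO libraries and in 0 of 2 at E8.5. It was called in 4 of 4 libraries with the 36kb deletion, with a median score of 18.3, and in 2 of 2 with the 42kb deletion. The 5 fragments between that of Hmx3 and that of Bub3, which overlap Hmx2, were each called with Nkx1-2 in 8 of 8 WT libraries, and in Ezh2cKO only 1 of the 5 was called, in 1 library with a score of 5.02.

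At the other end of these contacts, the fragment of Bub3 and Hmx2, chr7:131555967-131561342, holds an end of Hmx2 and not its start. It had 15 and 16 calls at E8.5, 9, 11 and 20 in WT and 2, 4 and 8 in Ezh2cKO. Its log2 change was -1.32 ± 0.31 (adjusted p = 0.0101). The Hmx3 fragment, chr7:131536595-131546370, had 8, 15 and 18 calls in WT and 5, 8.5 and 14 in Ezh2cKO, which overlap (log2 change -0.54, adjusted p = 0.165). Its calls at 1 to 2 Mb were 6.62 on average in WT and 0.5 in Ezh2cKO, and those at 100 kb to 1 Mb 5.62 and 8.12. So at Hmx3 the calls to the Nkx1-2 side were missing while nearer ones were not fewer.

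Dbx1 had 20, 25 and 30 calls in WT and 3, 9 and 17 in Ezh2cKO on its fragment chr7:49633508-49638476, with no overlap. The log2 change was -1.34 ± 0.20, or 2.53-fold lower (adjusted p = 0.000223). The 12 contacts of Dbx1 that were present in at least 7 WT libraries and absent from at least 7 Ezh2cKO libraries fell in 3 places. There were 2 at about 44 and 49 kb, 5 between 266 and 279 kb, beside and within Slc6a5, a glycine transporter gene, and 5 between 1986 and 1994 kb, on Slc17a6, which encodes a vesicular glutamate transporter. All 12 were called in 0 of 8 Ezh2cKO libraries. The promoter fragment of Slc17a6, chr7:51621567-51622788, was called with Dbx1 in 2 of 2 libraries at E8.5 and in 8 of 8 WT libraries with scores of 6.15 to 18.6. A fragment inside Slc17a6, chr7:51629189-51630770, reached a score of 32.6. With the 36kb deletion the pair of Dbx1 with the Slc17a6 promoter was called in 1 of 4 libraries, and with the 42kb deletion in 1 of 2. The other fragments on Slc17a6 were each called with Dbx1 in 3 or 4 of 4 libraries with the 36kb deletion. With the 42kb deletion each was called in 1 of 2.

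Nr2f2 had 15, 19 and 25 calls in WT and 8, 12.5 and 14 in Ezh2cKO, with no overlap. The log2 change was -0.58 ± 0.17 (adjusted p = 0.0326), and the call was lost when any of 12 of the 16 libraries was left out (adjusted p up to 0.0785) and at a score minimum of 7 (adjusted p = 0.0529). Its contact with chr7:68973106-68974892, which overlaps no annotated protein-coding gene and lies 1393 kb away, was called in 8 of 8 WT and 0 of 8 Ezh2cKO libraries.

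**Figure D4:**
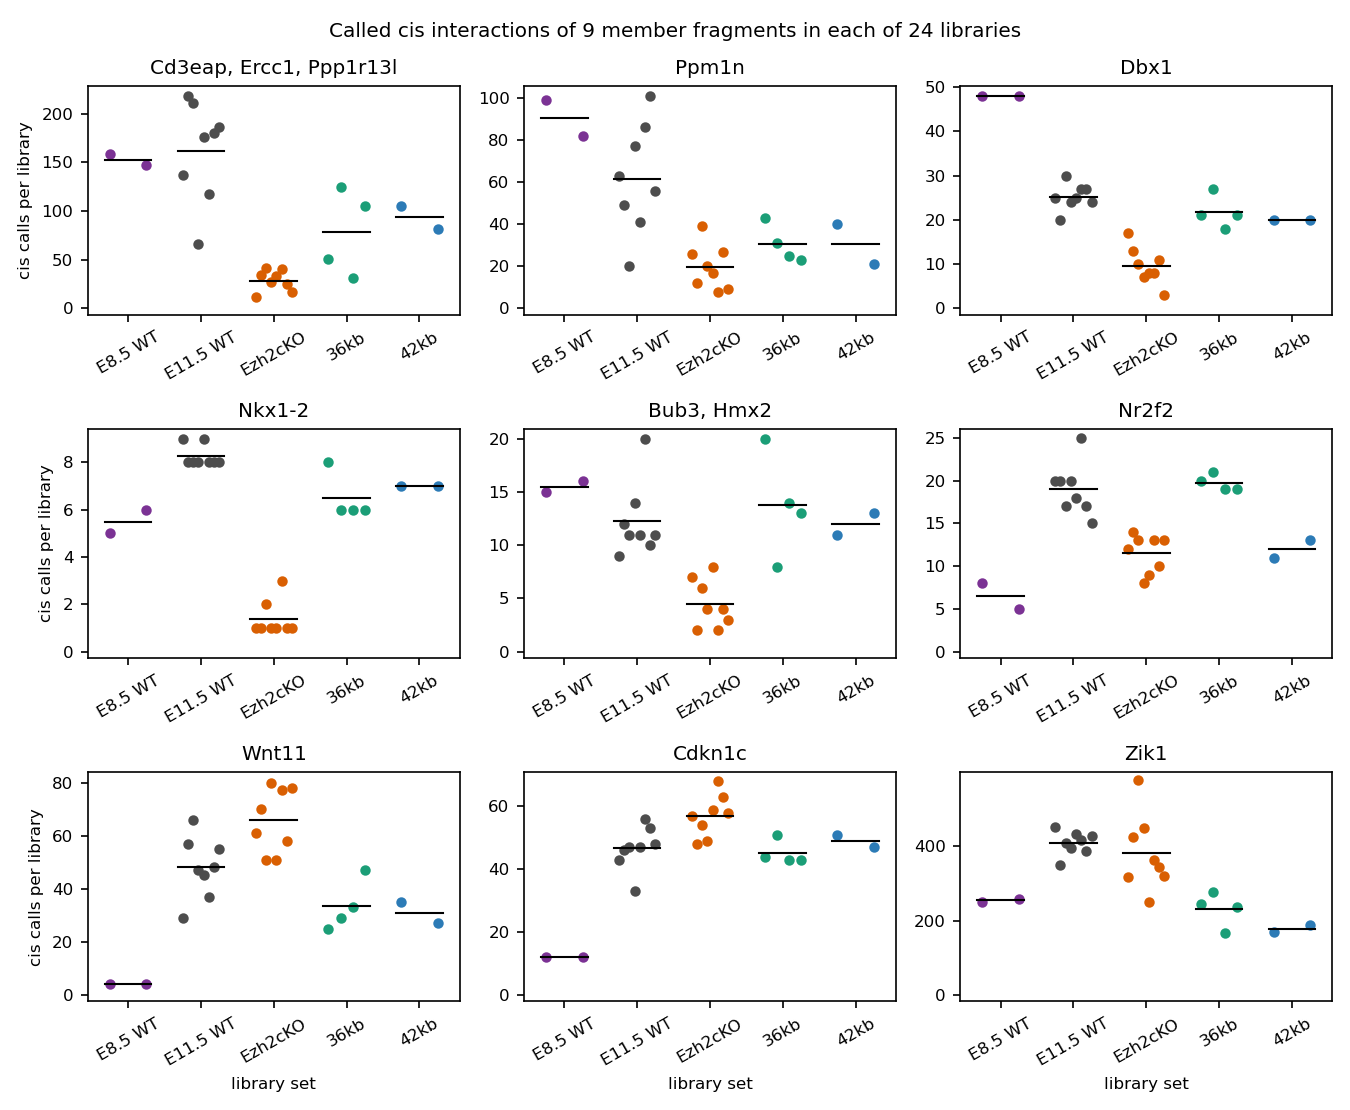
Called cis interactions of 9 chromosome 7 fragments in each of the 24 libraries, 1 panel per fragment and 1 point per library, by library set, with a line at the mean, on linear axes. Nkx1-2 lies between 8 and 9 calls in WT and between 1 and 3 in Ezh2cKO, and Wnt11 at 4 calls in both E8.5 libraries and between 29 and 66 in E11.5 WT.

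The largest fall was at a fragment of 3 genes in the 15 to 20 Mb window, chr7:19351932-19363671, which holds the starts of Cd3eap and Ppp1r13l and an end of Ercc1. Cd3eap encodes a subunit of RNA polymerase I, Ppp1r13l an inhibitor of p53, and Ercc1 a DNA repair nuclease subunit. It had 158 and 147 calls at E8.5, 66, 178 and 218 in WT, and 12, 30 and 41 in Ezh2cKO. The groups did not overlap, and the log2 change was -2.36 ± 0.26, or 5.15-fold lower (adjusted p = 4.64e-06). Since position was part of the choice of the chromosome, this p-value and those of the neighbouring fragments are not independent of it. Calls were fewer at every distance, from 25.6 to 4.5 under 100 kb, from 86.5 to 17.6 at 100 kb to 1 Mb, and from 49.2 to 6.5 at 2 Mb or more. With the 36kb deletion it had 51 and 125 calls in Md and 31 and 105 in PA2, so replicates differed widely, and with the 42kb deletion 105 and 82. Left out of the chromosome's share, it changed the difference in Ezh2cKO to -0.980 points from -1.05.

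Its neighbours fell too. Ppm1n, a phosphatase gene at chr7:19278669-19281662, had 20, 59.5 and 101 calls in WT and 8, 18.5 and 39 in Ezh2cKO, which overlap (log2 change -1.53 ± 0.31, adjusted p = 0.00373). Rtn2, next to it, had 10, 33.5 and 46 and then 5, 10 and 20 (log2 change -1.39, adjusted p = 0.00164). A second fragment of Ercc1, chr7:19342518-19344981, had 100, 136.5 and 169 and then 42, 63 and 81 (log2 change -0.96 ± 0.14, adjusted p = 0.000112). Ppm1n and Rtn2 thus varied widely within WT, while the second Ercc1 fragment was free of overlap. The fragment of Ercc2 and Klc3 changed by -0.87, and that of Fbxo46, Qpctl and Snrpd2 by -0.73.

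Of the imprinted genes, Peg3 and Usp29, which are expressed from the paternal allele and share chr7:6708428-6731381, fell. They had 51, 79 and 122 calls in WT and 16, 36 and 85 in Ezh2cKO (log2 change -1.13 ± 0.26, adjusted p = 0.0105). Igf2, chr7:142665163-142668849, rose from 21, 24 and 29 to 30, 34.5 and 38 with no overlap (log2 change 0.57 ± 0.13, adjusted p = 0.00802). Its contact with the fragment of Syt8 and Tnni2, 225 kb away, was called in 1 of 8 WT and 8 of 8 Ezh2cKO libraries. This contact was not particular to Ezh2cKO. It was also called in 3 libraries with the 36kb deletion, 2 with the 42kb deletion and 1 at E8.5. Scores were 11.88 to 12.05 with the 42kb deletion and 5.11 to 8.33 in Ezh2cKO. Cdkn1c went from 33, 47 and 56 to 48, 57.5 and 68 (log2 change 0.42, adjusted p = 0.0267). Its call was lost when any of 8 of the 16 libraries was left out (adjusted p up to 0.0700) and with library-total scaling (log2 change 0.26, adjusted p = 0.0752). So within the list of imprinted genes, 2 of 14 tested rose and 1 fell, with a median log2 change of 0.08.

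Hif3a, chr7:17061842-17063012, rose from 48, 55 and 72 calls to 64, 82 and 98 (log2 change 0.63 ± 0.10, adjusted p = 0.000397). Ints4, a subunit of the Integrator complex, had 2, 3.5 and 9 calls in WT and 5, 8.5 and 15 in Ezh2cKO (log2 change 1.27, adjusted p = 0.00827). Tcerg1l had 5, 8 and 12 and then 10, 15 and 17 (log2 change 1.00, adjusted p = 0.00196). Abca15, a lipid transporter gene, had 4, 4 and 6 and then 8, 8 and 9, with no overlap (log2 change 1.00, adjusted p = 0.00168). Wnt11 had 29, 47.5 and 66 and then 51, 65.5 and 80 (log2 change 0.59, adjusted p = 0.0279), and its call was lost without any of 8 libraries (adjusted p up to 0.0810) with library-total scaling (adjusted p = 0.0601) and with only calls under 2 Mb (adjusted p = 0.053). The protease gene Adamts17 rose by 0.72 on the log2 scale (adjusted p = 0.0117), and Mesp1, a mesoderm transcription factor, by 0.74 (adjusted p = 0.0226), the latter lost without any of 7 libraries (adjusted p up to 0.0643).

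By list, skeletal and craniofacial genes had 4 rises and no fall among 18 tested, namely Igf2, Cdkn1c, Adamts17 and Mesp1, with a median log2 change of 0.24. Developmental regulators had 2 rises and 5 falls among 32, with a median of -0.14, where the falls include Nkx1-2, Dbx1, the Hmx2 fragment and Nr2f2. Tissue-restricted gene clusters had 5 falls and no rise among 54, with a median of -0.20, among them the oocyte homeobox gene Obox6, from 26, 29 and 38 calls to 6, 12.5 and 23. Signalling genes had 2 rises and no fall among 24, neuronal genes 1 fall among 29, and housekeeping genes 3 rises and 5 falls among 66. Over all tested chromosome 7 promoters 4.26% rose and 4.55% fell.

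As a view of single contacts, pairs called in at least 7 of 8 libraries of one genotype and at most 1 of 8 of the other were counted, by a rule chosen after the data were seen. Of 4970 chromosome 7 contacts present in at least 7 libraries of either genotype, 104 were lost and 45 gained in Ezh2cKO, or 2.09% and 0.905%. Over all 69168 such contacts of the series the percents were 2.09% and 1.42%. Only 2 of the lost contacts spanned 2 Mb or more. The fragment of Cd3eap, Ercc1 and Ppp1r13l held 41 of the 104, Dbx1 12 and Nkx1-2 7. Of the gained contacts, 3 were at Wnt11, between 113 and 189 kb away, on the side of Emsy. Sox6, a transcription factor of cartilage, gained a contact at 1173 kb, in 1 of 8 WT and 7 of 8 Ezh2cKO libraries.

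With the 36kb deletion, calls fell at the fragments of Prr12, Ceacam20, Six5 and Cyp2s1 among others, and rose at those of Tmem126a, Gprc5b and Adamts17. Of the 681 promoters 46 rose and 34 fell, against 5% and 4.63% of all tested baits. The median log2 change was 0.09, against 0.03 over all tested baits. Scaled to the library total, 26 rose and 107 fell, against 5.46% and 5.65% of all tested baits. The chromosome's lower share, by which it was chosen, enters each of these values, so nothing is read from them. In both Ezh2cKO and the 36kb deletion 10 promoters passed, or 16.7% of the 60 of Ezh2cKO, where 11.7% of all 681 passed with the 36kb deletion. They include the fragments of Six5, Ceacam20 and Adamts17, the second fragment of Ercc1, and that of Fbxo46, Qpctl and Snrpd2. Not all of these calls were firm. In Ezh2cKO the call of Ceacam20 was lost at a score minimum of 7 (adjusted p = 0.467). It was also lost there with only calls under 2 Mb (adjusted p = 0.248). With the 36kb deletion the call of the Fbxo46 fragment was lost when some single libraries were left out. Both comparisons use the Md and PA2 WT libraries, and the overlap was not tested. In the first 50 Mb lay 31 of the 34 falls, 10 of the 46 rises and 60.9% of the promoters not called, which is again a description only. The 80 calls became 50 at a score minimum of 7 and 32 when only the groups compared were fitted. Leaving out 1 library left between 35 and 85 calls, with under 50 without Md WT replicate 1 or 2, PA2 WT replicate 1 or 2, Md 36kb replicate 1 or PA2 36kb replicate 1.

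The fragment of Prr12 and Prrg2, chr7:45044450-45056668, had 32 and 40 calls in Md WT and 32 and 34 in PA2 WT. With the deletion it had 5 and 10 in Md and 5 and 19 in PA2, a log2 change of -1.55 ± 0.31 (adjusted p = 0.00499). Ccdc114, a gene of the ciliary dynein docking complex, had 5, 13, 9 and 6 calls in these WT libraries and 0, 0, 1 and 7 with the deletion (log2 change -2.24 ± 0.43, adjusted p = 0.00365). The Prr12 fragment was free of overlap, and Ccdc114 overlapped through PA2 36kb replicate 2. The fragment of Bhmg1, Dmpk and Six5, of which Six5 is a homeobox gene, had 80, 93, 69 and 110 calls and then 23, 33, 12 and 34 (log2 change -1.42 ± 0.27, adjusted p = 0.0039). Ceacam20, of the carcinoembryonic antigen family, had 47, 48, 42 and 32 and then 7, 10, 15 and 13 (log2 change -1.47, adjusted p = 0.00223, or 0.0979 with only calls under 2 Mb). Cyp2s1, a cytochrome P450 gene, had 66, 52, 46 and 54 and then 9, 21, 17 and 23 (log2 change -1.25 ± 0.21, adjusted p = 0.00133). None of these 3 overlapped.

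Tmem126a, a mitochondrial membrane protein at chr7:90453642-90458498, had 5 and 2 calls in Md WT and 4 and 4 in PA2 WT. It had 10 and 11 in Md and 11 and 10 in PA2 with the deletion, a log2 change of 1.86 ± 0.29 (adjusted p = 0.000924). Gprc5b, an orphan receptor, had 9, 6, 9 and 7 calls and then 14, 14, 14 and 15 (log2 change 1.28 ± 0.25, adjusted p = 0.00478). Adamts17 had 14, 15, 9 and 10 and then 24, 19, 19 and 15 (log2 change 1.10, adjusted p = 0.00857). Tmem126a and Gprc5b were free of overlap, and Adamts17 met it at 15 calls. Tgfb1, which encodes the signalling protein TGF-beta 1 and shares a fragment with B9d2, had 40, 29, 22 and 27 calls and then 7, 10, 14 and 15 (log2 change -0.92, adjusted p = 0.0211). Its call was lost without Md WT replicate 1, PA2 WT replicate 2 or Md 36kb replicate 1 (adjusted p up to 0.0813), at a score minimum of 7 (adjusted p = 0.102) and with only the groups compared (adjusted p = 0.0592). Tbx6, a T-box gene of the paraxial mesoderm, shares a fragment with Gdpd3 and Ypel3, which had 11, 12, 11 and 10 calls and then 3, 4, 2 and 4. Its log2 change was -1.23 (adjusted p = 0.048), and the call was lost without any 1 of the 8 libraries (adjusted p up to 0.142).

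By list, developmental regulators had 2 falls among 32 with the 36kb deletion, signalling genes 2 rises and 2 falls among 24, and skeletal and craniofacial genes 1 rise and 2 falls among 18. Imprinted genes had 1 rise among 14, neuronal genes 2 rises and 2 falls among 29, tissue-restricted clusters 3 falls among 54 and housekeeping genes 5 rises and 4 falls among 66. Over all tested chromosome 7 promoters 6.75% rose and 4.99% fell. The difference of the deletion effect between PA2 and Md passed the threshold at 0 of 681 promoters by limma, with 26 at an unadjusted p under 0.05, and at 2 of all 10344 tested baits (0.0193%), with 583 at an unadjusted p under 0.05.

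With the 42kb deletion in PA2, 3 promoters rose and 7 fell, against 0.822% and 0.754% of all tested baits. The median log2 change was 0.12, against 0.03 over all tested baits. Scaled to the library total, 3 rose and 11 fell, against 0.822% and 1.02% of all tested baits, and here too the chromosome's share enters each value. Zik1, chr7:10494570-10496023, had 388 and 428 calls in PA2 WT and 169 and 187 with the deletion, a log2 change of -0.88 ± 0.13 (adjusted p = 0.00307). Its calls were mostly distant, with 354.5 of 408 at 2 Mb or more in PA2 WT on average and 156.5 of 178 with the deletion. Fitted on these 4 libraries alone it did not pass (adjusted p = 0.0605). The other 6 falls included 5 in the tissue-restricted gene clusters. Mrgprb1, a receptor of the family found on mast cells and sensory neurons, had 25 and 22 calls in WT and 5 and 3 with the deletion (log2 change -2.14 ± 0.45, adjusted p = 0.0221). Hbb-bs, an adult beta-globin gene, had 22 and 24 and then 6 and 6 (log2 change -1.54, adjusted p = 0.0441). The secretoglobin gene Scgb1b24 had 30 and 23 and then 4 and 4 (log2 change -2.26, adjusted p = 0.027). Dnah3, an axonemal dynein gene, had 8 and 8 and then 19 and 25 (log2 change 1.70, adjusted p = 0.0336). None of these groups overlapped. Each of these calls except that of Zik1 was lost when some 1 of the 4 libraries was left out: Hbb-bs, Scgb1b24 and Dnah3 without any of them (adjusted p up to 0.194, 0.166 and 0.170), and Mrgprb1 without either PA2 WT library or PA2 42kb replicate 2 (adjusted p up to 0.140). Leaving out 1 library left 1 to 4 calls: 1 without PA2 WT replicate 1 or 2, 4 without PA2 42kb replicate 1 and 3 without its replicate 2. Fitted on these 4 libraries alone, 0 of 691 promoters passed by limma, with 92 at an unadjusted p under 0.05. Tissue-restricted gene clusters had 5 falls and no rise among 54, with a median log2 change of -0.43, and in the other 6 lists neither was called. Over all tested chromosome 7 promoters 1.03% fell, and the lists were not tested.

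**Figure D5:**
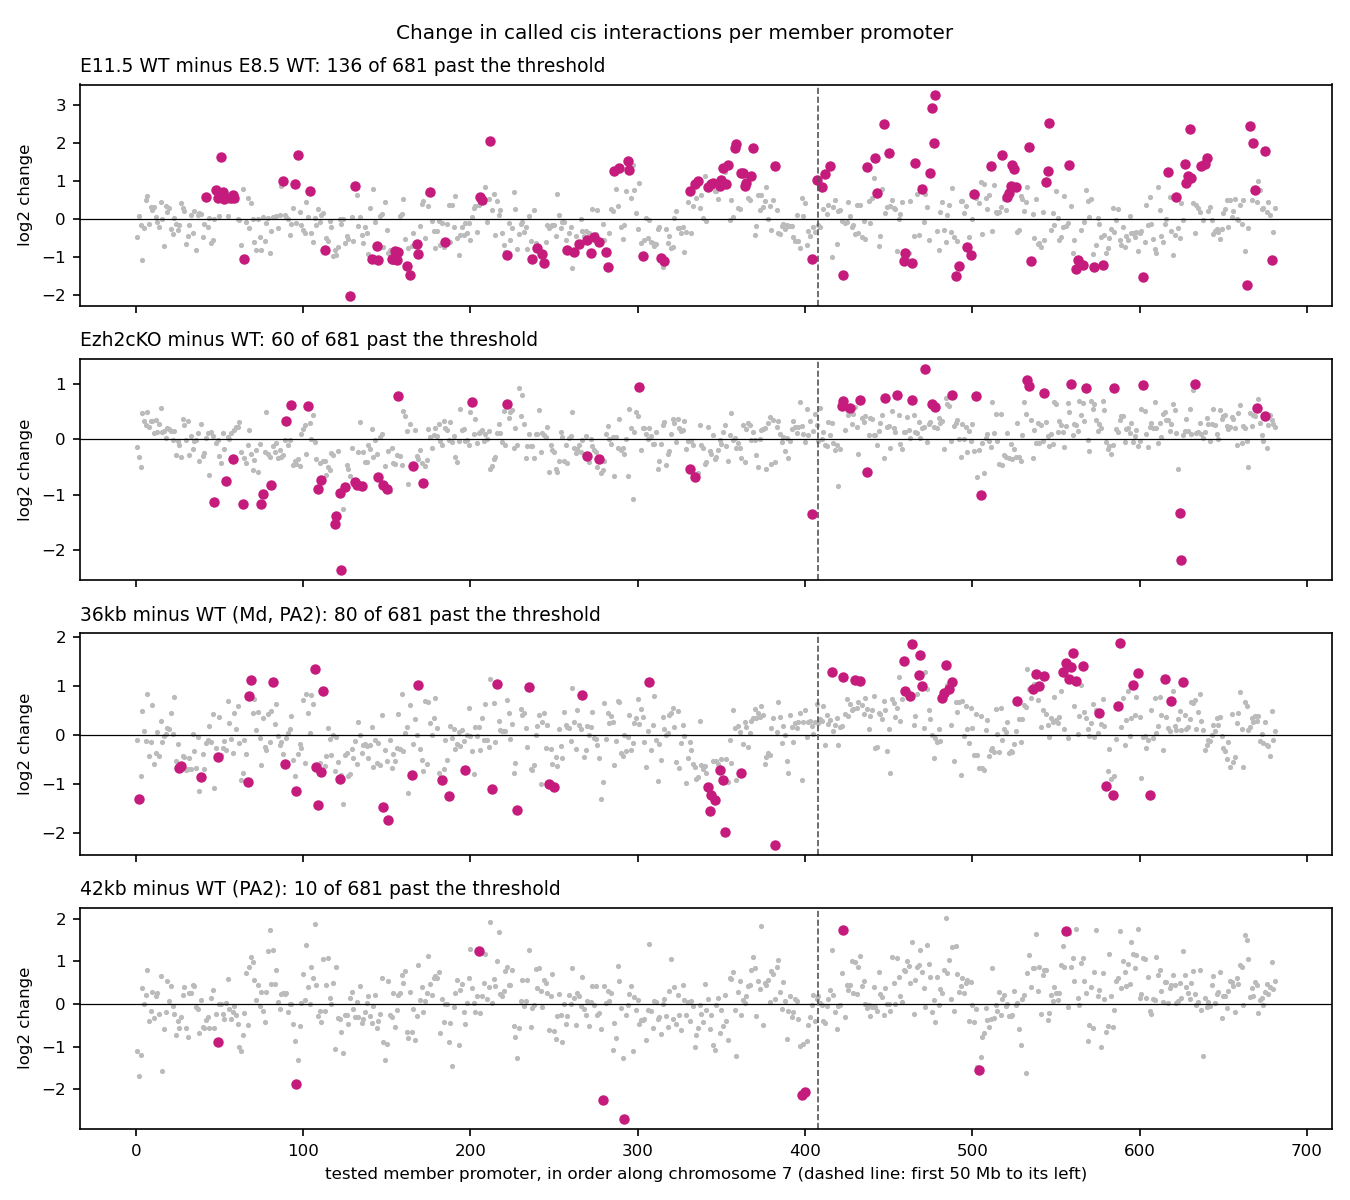
Log2 change in called cis interactions, relative to the other calls of the chromosome, for the 681 tested chromosome 7 promoters in order along the chromosome, 1 panel per comparison, with promoters past the adjusted p threshold of 0.05 as large points. Left of the dashed line, in the first 50 Mb, lie 27 of the 31 falls in Ezh2cKO and 31 of the 34 with the 36kb deletion.

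Differences between tissues were not detected at single promoters. The F test over FNP, Mx, Md and PA2 in WT passed at 0 of 681 promoters by limma, with 35 at an unadjusted p under 0.05, and at 0.242% of all baits. The test of whether the Ezh2cKO effect differed between tissues passed at 0 of 681, with 20 at an unadjusted p under 0.05, and at 0.00967% of all baits. With 2 libraries per tissue, differences within the spread of replicates could not be seen.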

How the data were processed

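Promoter capture Hi-C was measured in 24 libraries of 12 groups. The deposited lists, which have no header, give fragment pairs with a score of at least 5, 1 library each. Per the deposited file names the authors made each score with CHiCAGO, and coordinates are GRCm38 (mm10) per the submitters' processing notes. The sources used here give no aligner, caller version or read depth, so no count model or counting interval was used, and a call says only that a pair passed its own library's threshold.

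A cis call between 2 baits was counted at both. Baits were named from RefSeq gene ends. Calls plus 0.5, per total of cis calls on the bait's own chromosome, were taken as log2 and fitted with limma 3.58.1 in R 4.3.3 over all groups, keeping baits that averaged 5 calls or more, with Benjamini-Hochberg adjustment over 10344 baits, two-sided. The share and windows were not tested, since they chose the promoters. Reach was tested by exact permutation, within tissue for the mutants. The sources do not say that replicate numbers pair the samples, and deviations of same-numbered libraries were not correlated (correlations from -0.0311 to 0.0142).

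The promoters and gene lists were chosen with earlier results of these data known. Promoters named were the 8 largest rises and falls past the threshold of each comparison, up to 5 of each list, and a set of developmental genes, of which the text describes a selection. The fits were tested on simulated data. Alternatives were the scaling, score minimum, filter, added count, variance trend, groups fitted, replicate block and leaving out each library.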

Additional observations from a re-analysis of the deposited data

How the results depend on the processing

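The counts of promoters past the threshold were 136 by stage, 60 in Ezh2cKO, 80 with the 36kb deletion and 10 with the 42kb deletion. Scaling to the library total gave 114 in Ezh2cKO and 133 with the 36kb deletion. A score minimum of 7 gave 50 with the 36kb deletion and 6 with the 42kb deletion, and fits of only the groups compared gave 32 and 0. Without the variance trend the 42kb deletion had 20. Without each library in turn the counts ran from 53 to 135 by stage, 37 to 62 in Ezh2cKO, 35 to 85 with the 36kb deletion and 1 to 4 with the 42kb deletion. With the replicate number as a block they were 135, 60, 73 and 10. The sources do not say that the numbers pair the samples, and the block changed none of these counts by over 1.5 times. The difference in share by stage was -0.497 points at a score minimum of 7 and reversed to 0.100 with all baits of the chromosome, from -0.177. With the 42kb deletion it was -1.03 and -1.46, from -0.832. Without each library the share differences ran from -0.214 to -0.140 by stage, -1.80 to -1.27 with the 36kb deletion and -0.903 to -0.762 with the 42kb deletion. In Ezh2cKO the largest difference without a library was -1.12, and without the Cd3eap fragment the difference was -0.980. At a score minimum of 7 the difference in median distance in Ezh2cKO was 0.701 kb, from -33.6 kb, and that in calls between chromosomes 0.260 points (adjusted p = 0.0741), from 0.587. Without each library the latter ran from 0.534 to 0.643 and the difference in calls at 1 Mb or more from -4.51 to -2.57 points, with an adjusted p of 0.0494 without Mx Ezh2cKO replicate 1. The percent of calls that joined 2 baits, lower by stage (-0.0837 points), ran from -0.347 to 0.180, reversed without progenitor replicate 1 (0.180) and Mx WT replicate 1 (0.0177). The causes were not tested. Of the calls at 117 named comparisons of a promoter, recomputed 2301 times, 1933 stayed past the threshold with their direction, 368 did not pass, and 0 reversed. Alternatives with only calls under 2 Mb and without the Cd3eap fragment were chosen after seeing the data. Depth was unknown, so its part in the number of calls was not tested.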
